A study of Mus musculus with 6 samples.

Results

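The set examined here comprised 10 genes that promote or restrain the growth of blood vessels, and all 10 were found by gene symbol among the 33924 genes of the deposited table. They were the ligands Vegfa, Vegfb, Vegfc and Pgf, the receptors Flt1 and Nrp1, the angiopoietins Angpt1 and Angpt2, the angiopoietin-like protein gene Angptl4 and the inhibitor gene Serpinf1. The libraries were poly(A)-selected RNA of RPE/choroid, the pigmented layer behind the neural retina together with the vessel layer that feeds it, from 3 young and 3 aged C57BL/6J mice with no transgene or treatment, and the tissue of both eyes of a mouse was combined in a sample. The labels give the mice as male, at 1 to 2 months for the young group, and at 20 to 24 months in the titles or 22 to 24 months in the age field for the aged group. The paper's methods instead describe mice of both sexes and slightly older young mice.

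The study set young against aged tissue. For each gene the table holds 1 mean normalized count over the 6 libraries of both age groups, beside columns of the authors' own comparison of the age groups, which were not used here. The values below are therefore levels in RPE/choroid over young and aged mice combined. No value of a single mouse or of an age group entered this work, so no difference with age, no error between mice and no overlap of the groups is given. Whether neighbouring levels differ beyond the spread between mice was not tested.

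Vascular endothelial growth factors (VEGFs) are secreted proteins that bind tyrosine kinase receptors on endothelial cells. Vegfa acts mainly through the receptor encoded by Kdr, whereas Flt1 binds Vegfa, Vegfb and Pgf tightly and also occurs as a secreted form that sequesters them. The RPE is known to release VEGF towards the choroid, where it maintains the fenestrated choriocapillaris, and pigment epithelium-derived factor (PEDF), the product of Serpinf1, which inhibits vessel growth. Overgrowth of choroidal vessels is the hallmark of neovascular age-related macular degeneration and is treated with antibodies and decoy receptors against VEGF.

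Levels of different genes were compared as mean normalized count per kilobase of the longest annotated transcript. The paper's appendix derives the normalized counts from TPM, a measure of transcript abundance already corrected for length, in which case a division by length would be a repeated correction. The smallest values in the table were alike in short and long genes. Counts of reads would give this, but so would scaled TPM values rounded to whole numbers. The smallest values therefore cannot tell which of these holds, and the step from TPM to counts is not described further. Values with no division by length are therefore given beside the main ratios. On this scale the median was 214, with quartiles of 54.2 and 669, over the 17947 genes with an annotated length whose mean normalized count reached 10. Of the 10 factors, 9 lay above this median and Angpt2 lay below it. Their median level was 881 per kilobase and the median of their percentiles on this scale, the percent of these genes with a lower level, was 78.9. Ranked by mean normalized count with no regard to length, the median percentile of the factors was 83.3 among all 18479 genes with a mean of at least 10. On this undivided scale the percentiles were 97.4 for Serpinf1, 97.1 for Nrp1, 96.9 for Vegfa, 93.2 for Angpt1 and 87.7 for Flt1. They were 78.9 for Pgf, 56.4 for Angptl4, 54.0 for Vegfb, 50.4 for Vegfc and 49.3 for Angpt2. The percentiles of single genes given below are per kilobase.

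**Figure D1:**
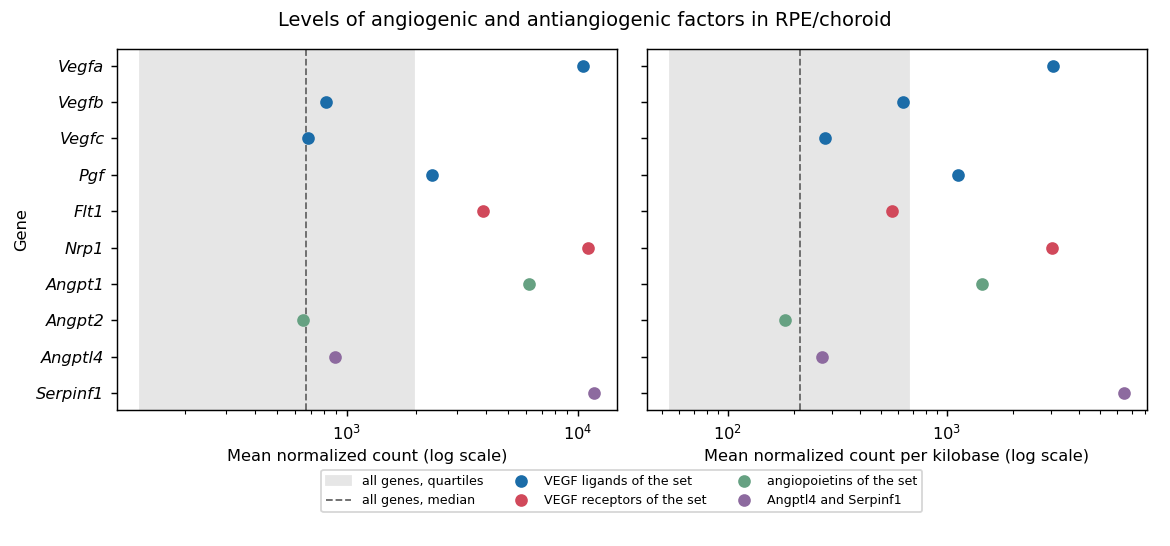
Mean normalized count (left) and mean normalized count per kilobase of the longest transcript (right) of the 10 factors, both on log axes, with 1 point per gene coloured by role. Each point is a mean over the 6 libraries with no error available. The dashed line is the median of the genes with a mean of at least 10 (668 on the left, 214 on the right), and the grey band spans their quartiles. On the right only genes with an annotated length enter. Serpinf1 is highest and Angpt2 lowest in both panels.

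Among the ligands, Vegfa had the highest level. Its mean normalized count was 10567, or 3062 per kilobase, which was 14.3 times the median gene per kilobase and at percentile 93.8. Pgf, which encodes placental growth factor, a ligand of Flt1, had a mean normalized count of 2347, or 1128 per kilobase (percentile 83.9). Vegfb, a ligand of Flt1 linked to the survival of vessel and nerve cells, had a mean normalized count of 812, or 634 per kilobase (percentile 73.9). Vegfc, a ligand of the lymphatic receptor encoded by Flt4, had a mean normalized count of 682, or 279 per kilobase (percentile 55.9). Vegfa transcripts thus made up 60.0% of the summed level per kilobase of these 4 ligands. Pgf made up 22.1%, Vegfb 12.4% and Vegfc 5.46%. Under the other treatments of length the share of Pgf was between 11.01% and 30.8%, that of Vegfb between 5.63% and 12.5% and that of Vegfc between 3.50% and 6.86%. Vegfa had the largest share under each of the 5 treatments of length that were tried, with shares from 57.3% to 79.4%.

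The receptors of the set differed in level. Nrp1, a co-receptor that presents VEGF to the kinase receptors and also binds semaphorins, had a mean normalized count of 11037, or 3028 per kilobase (percentile 93.7). Per kilobase of the longest transcript Vegfa over Nrp1 was 1.01. This ratio was 2.19 with the union of exons, 3.01 with the median coding transcript, 2.25 with the coding sequence and 0.957 with no division by length. Flt1 had a mean normalized count of 3876, or 562 per kilobase (percentile 71.3). The level of Flt1 per kilobase was 0.452 times that of Kdr, which stood at 1244 per kilobase, and 0.526 times with no division by length. Nrp1 was at 3.85 times the level per kilobase of its homologue Nrp2, which stood at 786 per kilobase, and at 2.09 to 3.74 times under the other treatments of length.

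Angpt1 and Angpt2 encode ligands of the endothelial receptor Tie2, the product of Tek. Angpt1, usually made by pericytes and other cells around vessels, activates the receptor and stabilizes vessels, while Angpt2 is stored in endothelial cells and counters Angpt1 in many settings. Angpt1 had a mean normalized count of 6135, or 1440 per kilobase (percentile 87.2). Angpt2 had a mean normalized count of 646, or 181.6 per kilobase (percentile 46.4), the lowest of the 10 factors. The level per kilobase of Angpt1 was 7.93 times that of Angpt2, and this ratio was between 6.73 and 9.49 under the other treatments of length. Tek itself stood at 912 per kilobase and Tie1, a related receptor without a classical ligand, at 767 per kilobase.

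Serpinf1 had the highest level of the set. Its mean normalized count was 11770, or 6425 per kilobase, which was 30.1 times the median gene per kilobase and at percentile 96.9. The level of Vegfa per kilobase was 0.477 times that of Serpinf1. This ratio depended on the length assigned to both genes and was 0.898 for the mean normalized counts with no division by length, and 0.955 per kilobase of coding sequence. Angptl4, which encodes an inhibitor of lipoprotein lipase that is induced by hypoxia and fatty acid receptors and also acts on vessel permeability, had a mean normalized count of 894, or 270 per kilobase (percentile 55.2). Vegfc over Angptl4 was 1.03 per kilobase of the longest transcript and 1.68 with the median coding transcript, and the order turned with the coding sequence, at 0.753, and with no division by length, at 0.763. From Serpinf1 to Angpt2 the levels per kilobase spanned a factor of 35.4, which was 90.3 with the median coding transcript and 18.2 with no division by length. The median coding transcript of Serpinf1 has 718 bases, fewer than its longest coding sequence of 1251 bases. That of Vegfa has 1143 bases, against 1176. This measure therefore rests on partial transcripts for both genes.

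The remaining genes of the pathway were read from lists. Of 6 further receptors and co-receptors each reached a mean normalized count of 10, and their levels ran from 43.8 per kilobase for Flt4 to 1244 per kilobase for Kdr. Vegfc stood at 279 per kilobase beside a Flt4 level of 43.8 per kilobase, and at 682 beside 274 with no division by length. The 6 further VEGF and angiopoietin-like ligands read here also reached a mean normalized count of 10. Angptl7 at 2966 per kilobase and Angptl2 at 2037 per kilobase were above Angptl4, whereas Figf, the older symbol of Vegfd, stood at 47.2 per kilobase and Angpt4 at 36.1 per kilobase.

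The lists also covered oxygen sensing, other inhibitors and other growth factors. Hif1a and Epas1, which encode the oxygen-regulated subunits of the hypoxia-inducible factors that activate Vegfa and Angptl4, had levels of 3529 and 1822 per kilobase. Hif3a stood at 4.33 per kilobase, the lowest of the 9 oxygen sensing genes. Of 13 other genes for secreted inhibitors of vessel growth, Sparc (23238 per kilobase), Timp3 (12909 per kilobase) and Thbs1 (3032 per kilobase) were highest. Of this list Sparc and Timp3 exceeded Serpinf1 per kilobase. With no division by length Timp3 (60954) was above Sparc (53447), and Thbs1 (17733) also exceeded Serpinf1 (11770). Among 5 genes for proteins reported to bind PEDF, the laminin receptor and ribosomal protein gene Rpsa was highest at 9962 per kilobase. Lrp6 was at 495, Plxdc2 at 410, the lipase gene Pnpla2 at 106 and Plxdc1 at 95.7 per kilobase. Of 13 other growth factor genes, Ctgf was highest with 9378 per kilobase and Fgf2 lowest with 5.60 per kilobase.

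**Figure D2:**
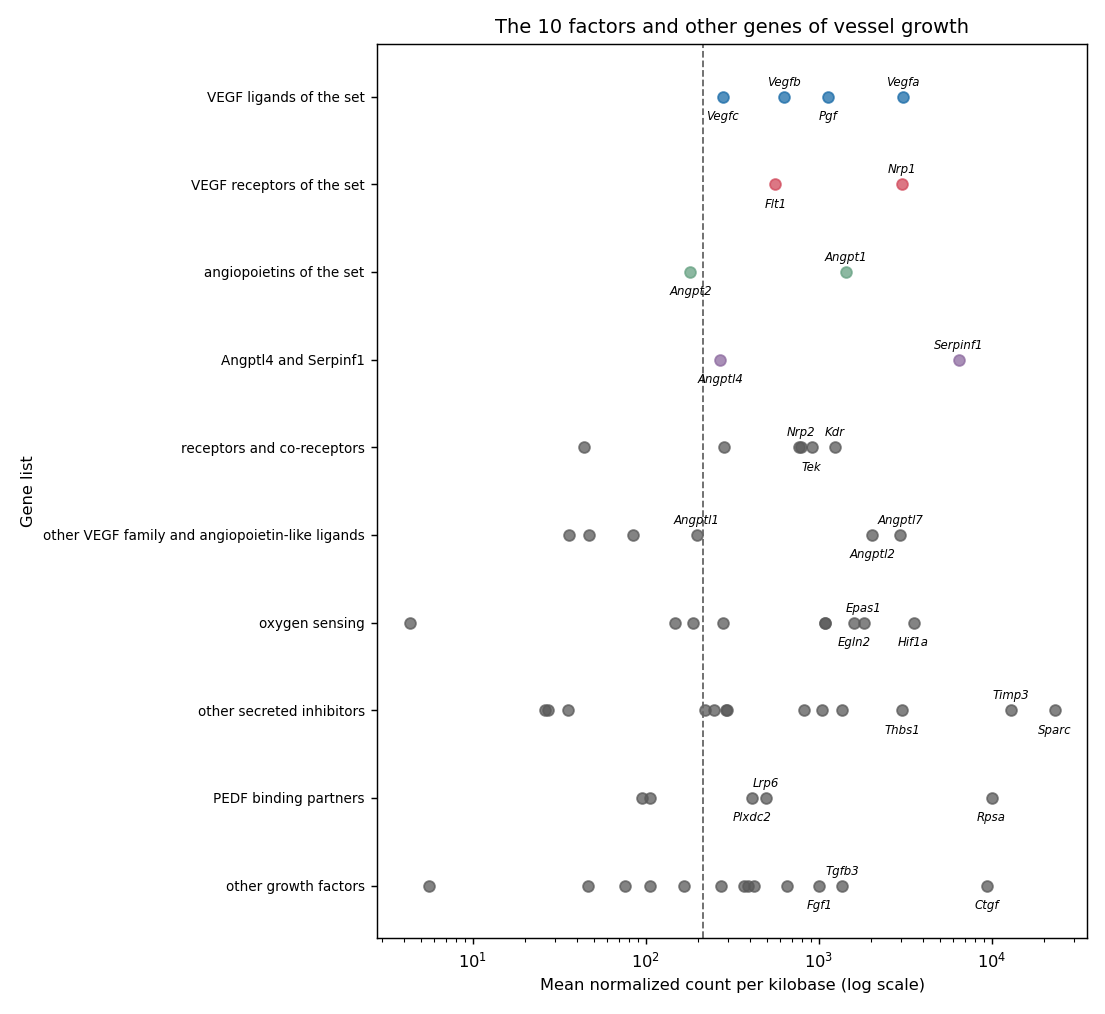
Mean normalized count per kilobase of the longest transcript (log axis) for the 10 factors, in colour by role, and for 6 lists of other genes of vessel growth, in grey, with 1 point per gene and the 3 highest genes of each grey list named. The dashed line is the median of all genes (214). Serpinf1, Vegfa, Nrp1 and Angpt1 lie above the 6 genes of the receptor list, while Sparc, Timp3, Rpsa and Ctgf lie above all 10 factors. With no division by length Kdr (7369) is above Angpt1 (6135).

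The tissue was checked against marker genes of the cells it can hold. Of 12 RPE markers 11 lay above the median gene per kilobase, from 1157 for Mitf to 335233 for Ttr, and Best1 was the exception with 39.3 per kilobase. The 12 endothelial markers lay between 146 and 4872 per kilobase and the 8 markers of pericytes and smooth muscle between 100.5 and 11043 per kilobase. Per kilobase, Flt1 lay above 3 of the 12 endothelial markers, Vegfa and Nrp1 above 11 of them and Serpinf1 above all 12. With no division by length these markers lay between 716.9 and 7925.5. Vegfa (10567), Nrp1 (11037) and Serpinf1 (11770) were then above all 12. Flt1 (3876) was then above all but Tek (4242), Cldn5 (6899), Kdr (7369) and Emcn (7926), so its place among these markers depended on the division by length. Markers of rod photoreceptors and skeletal muscle, which lie outside RPE and choroid, were also present. The 6 rod photoreceptor markers lay between 4145 and 30177 per kilobase and the 4 skeletal muscle markers between 8136 and 39379 per kilobase, all above Vegfa. For 5 markers of Mueller glia and astrocytes the range was 296.7 to 198183 per kilobase, with Apoe highest and a median of 988. Which cells the transcripts of this list and of the lists that follow came from was not tested. The ranges were 1159 to 92625 for 6 markers of macrophages and 798 to 18042 for 6 of fibroblasts. They were 61.2 to 74294 for 7 of melanocytes, whose pigment genes the RPE also expresses, and 304 to 2898 for 4 of Schwann cells. Of 5 red cell markers, 3 were matched, with levels between 781 and 64451 per kilobase. Which of these cells the transcripts of each factor came from was not tested, and in such bulk samples fewer cells of a type and less RNA per cell cannot be told apart.

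**Figure D3:**
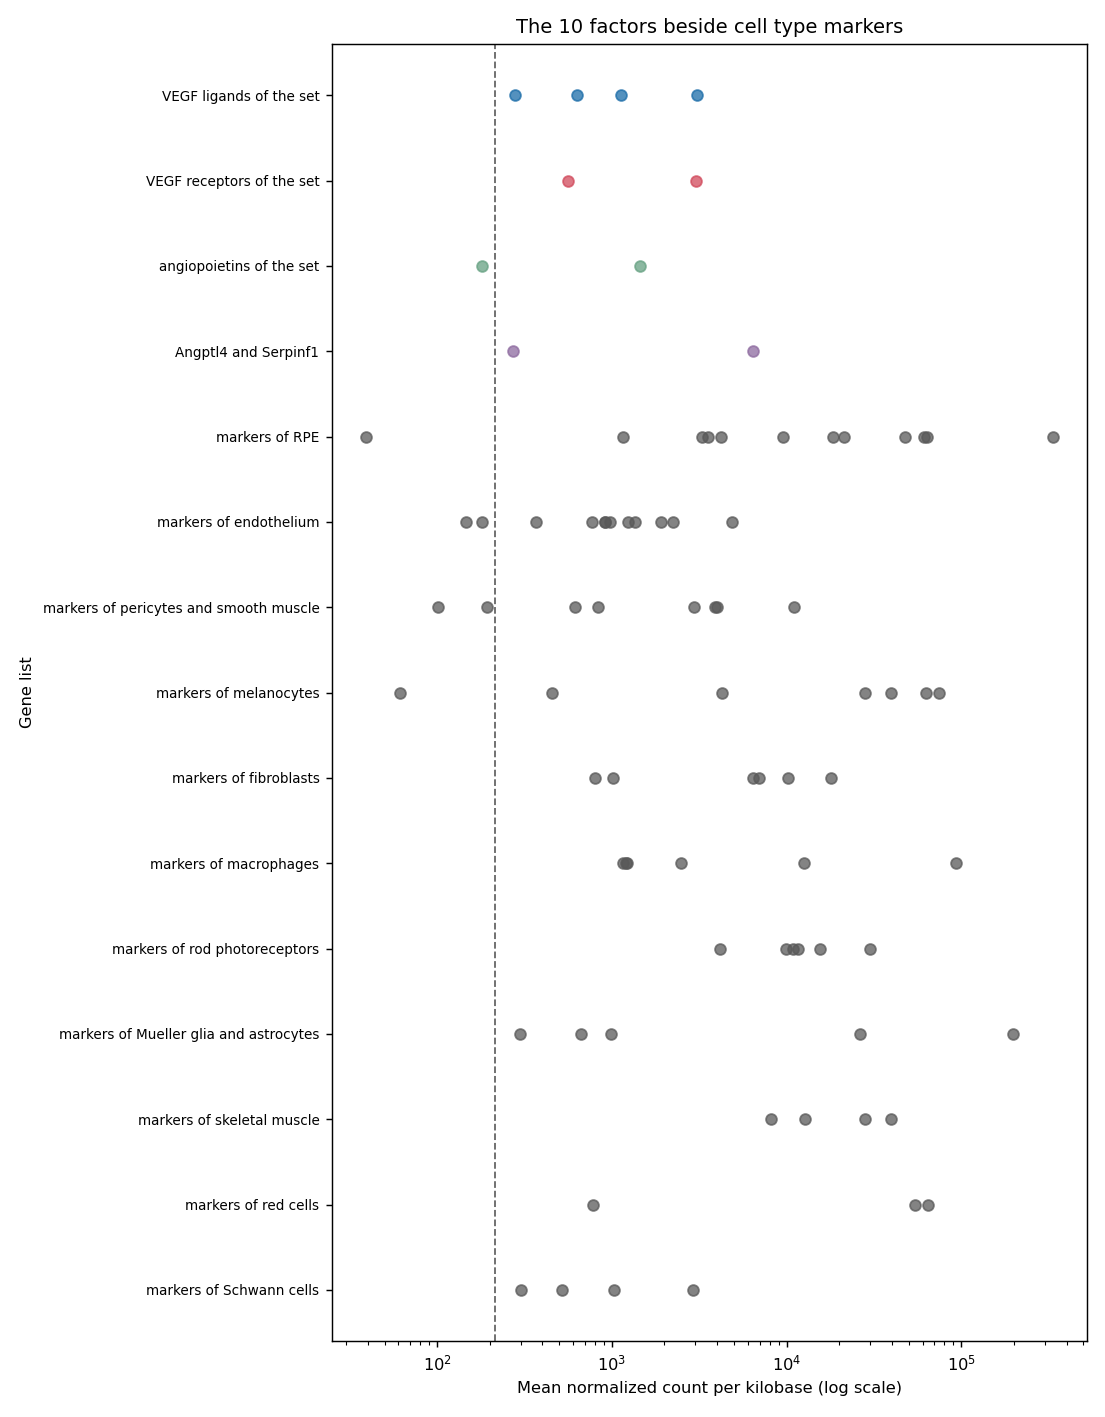
Mean normalized count per kilobase of the longest transcript (log axis) for the 10 factors, in colour by role, and for 11 lists of cell type markers, in grey, with 1 point per gene. The dashed line is the median of all genes (214). The rod and skeletal muscle markers all lie above Vegfa (3062), and the endothelial markers span 146 to 4872.

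The 10 genes lie on 7 chromosomes of GRCm38. On the minus strand, Vegfa (ENSMUSG00000023951) spans 46016993 to 46032369 and Angptl4 (ENSMUSG00000002289) spans 33773750 to 33781830 of chromosome 17. On chromosome 8, Vegfc (ENSMUSG00000031520) spans 54077606 to 54187096 and Nrp1 (ENSMUSG00000025810) 128358604 to 128503363 of the plus strand, and Angpt2 (ENSMUSG00000031465) 18690263 to 18741562 of the minus strand. The other 5 are on minus strands, with Vegfb (ENSMUSG00000024962) on chromosome 19 from 6982473 to 6987651, Pgf (ENSMUSG00000004791) on chromosome 12 from 85166635 to 85177790 and Flt1 (ENSMUSG00000029648) on chromosome 5 from 147561604 to 147726011. Angpt1 (ENSMUSG00000022309) is on chromosome 15 from 42424723 to 42676977 and Serpinf1 (ENSMUSG00000000753) on chromosome 11 from 75409769 to 75422701.

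The annotation limits what a value per gene can show. Vegfa has 8 protein-coding transcripts among 13, with coding sequences from 438 to 1176 bases, and the balance of its isoforms, which differ in heparin binding, was not measured. Flt1 has 2 protein-coding transcripts, a long one of 1333 codons that encodes the membrane receptor and a short one of 688 codons, the length class of the secreted decoy, and its value sums both. Angpt2 lies opposite Mcph1 with 0 shared exon bases. Angpt1 shares 737 exon bases, 14.2% of its own, with the antisense gene Gm17473, and 86.7% of its words of 50 bases occur in no other gene on either strand. The mean normalized count of Gm17473 was 31.8, against 6135 for Angpt1. Among the other 9 factors the lowest share of own words was 99.7%, in Nrp1.

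**Figure D4:**
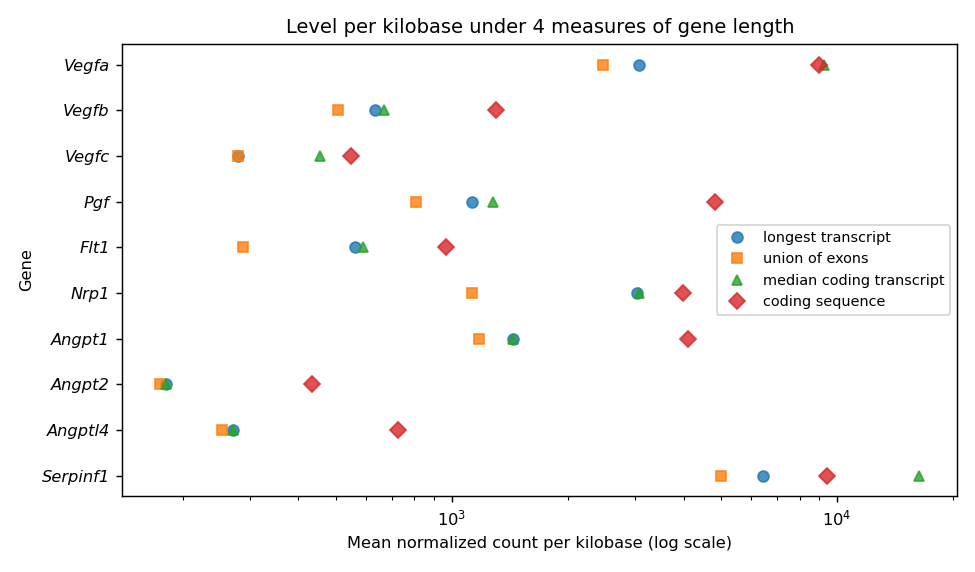
Mean normalized count per kilobase (log axis) of the 10 factors under 4 measures of gene length, namely the longest transcript, the union of all exons, the median protein-coding transcript and the longest coding sequence, with 1 marker per measure. Serpinf1 is highest, Vegfa second and Angpt2 lowest under each measure, while Nrp1 moves from 1128 to 3986.

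The promoter table of RefSeq (GRCm38.p6), with 250 bases before and 50 after each start, held 9 promoters of 7 factors, namely Vegfa, Vegfb, Vegfc, Pgf, Flt1, Nrp1 and Serpinf1. The GC box GGGCGG, searched on both strands, occurred in 7 of the 9 promoters and in 6 of the 7 factors, and in 35.7% of all 32851 promoters of the same length. Serpinf1 was the factor without it. The core of the hypoxia response element, ACGTG, occurred in 19.6% of all promoters and in those of 2 factors, Serpinf1 and the second start of Vegfa. The TATA box TATAAA occurred in 13.6% of all promoters and in that of Flt1 alone among the factors. The GC content of the 9 promoters ran from 50.7% for Serpinf1 to 75.3% for Vegfb, against a median of 52.7% over all promoters. These matches describe letters in the window and say nothing of binding or use. The promoters at the upstream start of Vegfa, chr17:46032328-46032627 on the minus strand, and of Serpinf1, chr11:75422574-75422873 on the minus strand, are shown because these genes were the highest ligand and the highest factor and their promoters differ in the GC box. Capitals mark GC boxes in Vegfa and the hypoxia core in Serpinf1.

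Vegfa: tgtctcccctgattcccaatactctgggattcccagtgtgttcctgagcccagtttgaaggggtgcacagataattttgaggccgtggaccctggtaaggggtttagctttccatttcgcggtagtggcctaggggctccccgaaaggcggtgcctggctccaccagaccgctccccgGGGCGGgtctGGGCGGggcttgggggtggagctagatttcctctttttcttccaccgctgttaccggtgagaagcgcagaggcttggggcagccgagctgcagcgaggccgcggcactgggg
Serpinf1: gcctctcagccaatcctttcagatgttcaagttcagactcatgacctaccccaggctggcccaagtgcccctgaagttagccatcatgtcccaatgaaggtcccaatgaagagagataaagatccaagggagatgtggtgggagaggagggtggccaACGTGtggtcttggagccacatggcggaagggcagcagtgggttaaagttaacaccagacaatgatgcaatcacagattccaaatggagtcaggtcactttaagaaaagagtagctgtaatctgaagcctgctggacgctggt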

How the data were processed

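Read pairs of 6 poly(A)-selected libraries were trimmed with BBDuk, mapped with STAR to Ensembl GRCm38 transcripts and quantified with Sailfish by the authors, who, per the appendix, turned TPM values into counts scaled by total and then compared the groups with DESeq2. The deposited signal is the authors' mean of the normalized counts over all libraries, and no sequencing depth of single libraries was used. The 5 other value columns hold the authors' own comparison of young and aged libraries (log2 fold change, standard error, Wald statistic, p-value and adjusted p-value) and were not used. The lowest mean above 0 was 0.157 in genes of up to 500 bases and 0.161 in genes of over 8000 bases, so the smallest values did not scale with length. This cannot tell counts of reads from scaled TPM values rounded to whole numbers, which would have the same floor. The values were divided here by length as the planned main scale. Counts made from TPM would already be corrected for length, and the undivided values are an alternative.

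Genes were matched by symbol to GENCODE M21 (GRCm38), which gave a length to 97.1% of the genes with a mean of at least 10. The members and lists were chosen with earlier results of these data known. All 10 members are named, with up to 4 of the highest genes of each list. Markers and low genes named beside them (Flt4, Figf, Angpt4, Hif3a, Pnpla2, Plxdc1, Fgf2, Tie1, Mitf, Best1 and Gm17473) were chosen after their values were seen. Besides the list genes analysed, 1 planned gene was left out and is not reported here. No test was made between age groups. The search for shared words of 50 bases was tested on simulated data. Computations used Python 3.11.15, pandas 2.3.3 and numpy 2.4.6, and figures matplotlib 3.10.9.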

Additional observations from a re-analysis of the deposited data

How the results depend on the processing

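The values are means over 6 libraries, so precision between mice is unknown and depth is not given. No paired analysis was possible because the mean used here has no value for a single mouse. The planned fits to single libraries, the other size factors, leaving out each replicate and the replicate block were therefore not run. The median percentile of the 10 factors by mean count was 87.9 among genes with a mean above 0 and 78.5 among genes with a mean of at least 100, where the change follows from fewer genes being ranked or more.

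The treatments of length kept Serpinf1 highest and Angpt2 lowest, and Vegfa second except with no division by length, where Nrp1 was second. The order between these places changed. Vegfb over Flt1 was 1.13 per kilobase of the longest transcript and 0.209 with no division by length. Nrp1 over Angpt1 went from 2.10 to 0.957 with the union of exons and 0.971 with the coding sequence. Angpt1 over Pgf went from 1.28 to 0.850 with the coding sequence. Under the other treatments the order within these pairs was kept. With the union of exons, the median coding transcript, the coding sequence and no division by length, in this order, the ratio of Serpinf1 to Angpt2 was 28.5, 90.3, 21.7 and 18.2. In the same order Vegfa over Serpinf1 was 0.494, 0.564, 0.955 and 0.898, Flt1 over Kdr was 0.352, 0.473, 0.531 and 0.526, and Nrp1 over Nrp2 was 2.53, 3.74, 2.11 and 2.09. The share of Vegfa among the 4 VEGF ligands was 60.8%, 79.4%, 57.3% and 73.3%. The median coding transcripts of Serpinf1 and Vegfa are shorter than their longest coding sequences, which raises both genes under that measure. Angpt1 over Angpt2 was 6.73 with the union of exons, 9.45 with the coding sequence and 9.49 with no division by length. With words of 100 bases the lowest share of own words, that of Angpt1, was 87.5%.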
